A study of Homo sapiens with 6 samples.

Results

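Epithelial and mesenchymal state genes were followed in A549 cells, a human lung adenocarcinoma line, after CRISPRi at the SFTPB locus. The set held 38 of the 26485 gene symbols counted, 17 of them epithelial and 21 mesenchymal, and each was taken by its symbol in the count files. The mesenchymal group takes in COL4A1 and COL4A2, chains of a basement membrane collagen, and ITGB6, a chain of an epithelial integrin. The cells carried lentiviral dCas9-KRAB, selected with puromycin at 10 ug/ml, and rat Nkx2-1 driven by the PGK promoter, selected by sorting for GFP. KRAB recruits silencing factors to the place where the nuclease-dead Cas9 is guided. The 3 sgRNA #2 libraries came from cells given a guide to a site in the first SFTPB intron, and the 3 sgRNA control libraries from cells given a non-targeted guide. Both groups thus shared dCas9-KRAB, Nkx2-1 and the transfection, so cells without these were not among the libraries. The time between transfection and harvest is not given in the sources used here. The depth, as reads assigned to genes, was 6341459, 7068999 and 7584611 for sgRNA control and 7058274, 6598372 and 6047554 for sgRNA #2.

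Epithelial cells adhere to their neighbours through E-cadherin, seal the space between them with claudins and occludin, and are braced by keratin filaments anchored at desmosomes. In the epithelial-mesenchymal transition, transcription factors of the SNAIL, ZEB and TWIST families repress these genes, while vimentin, N-cadherin, fibronectin and other matrix proteins come up. Carcinoma cells often hold genes of both states, and TGF-beta, a factor that A549 cells respond to, is the classical inducer of the transition.

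The sgRNA #2 target is shown because it defines the treatment, and a second sequence is shown further on because it lies between a pair of genes that moved together. The target lies on the minus strand of GRCh38 at chr2:85668529-85668551, is read 5′ to 3′ with its PAM at the end, and has its 10 PAM-proximal bases in capitals.
sgRNA #2 target: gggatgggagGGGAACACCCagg
A search for these 10 bases next to an NGG covered either strand within 1000 bp of the annotated start sites (GENCODE 44) of each gene. They were found at 0 of the 38 genes and at 28 of 13002 tested genes with an annotated start (0.215%). With 8 bases, 1 of the 38 genes held a match, ITGB6, and 1.507% of tested genes did. Of the 19 other listed genes past the test, described below, ELF3 alone held a match of 8 bases. These letter matches describe the windows searched and are no measure of binding.

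The targeted gene was checked first. SFTPB, which encodes surfactant protein B, gave 2683, 2877 and 3155 counts with sgRNA control and 40, 42 and 49 with sgRNA #2. This was a log2 fold change of -5.96 (SE 0.101, edgeR adjusted p = 5.56e-17), and the labels and the data point the same way. The A549 label was checked against marker genes of this line. NQO1, AKR1B10 and ALDH1A1, enzymes that are abundant in A549 cells, averaged between 1580 and 2739 CPM in both groups, CPM being the unit of counts scaled to a common library size with TMM factors. CDKN2A and CDKN2B, which are deleted in this line, had 0 reads in all 6 libraries. Of 10 fibroblast markers, 1 passed the count filter, THY1, the most abundant of them. The 10 summed to 6.53, 6.24 and 3.94 CPM with sgRNA control and to 5.69, 4.81 and 3.66 with sgRNA #2, and COL1A2 and DCN were at 0 in all 6. The 10 endothelial markers summed to between 2.5 and 5.38 CPM, with ESAM the most abundant and CDH5 at 0. The 10 leukocyte markers summed to between 68.6 and 75.8 CPM, of which CD68, a lysosomal protein that other cells also make, held 91.6%, while PTPRC, CD3E and MS4A1 were at 0. The groups overlapped in each of these 3 sums.

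**Figure D1:**
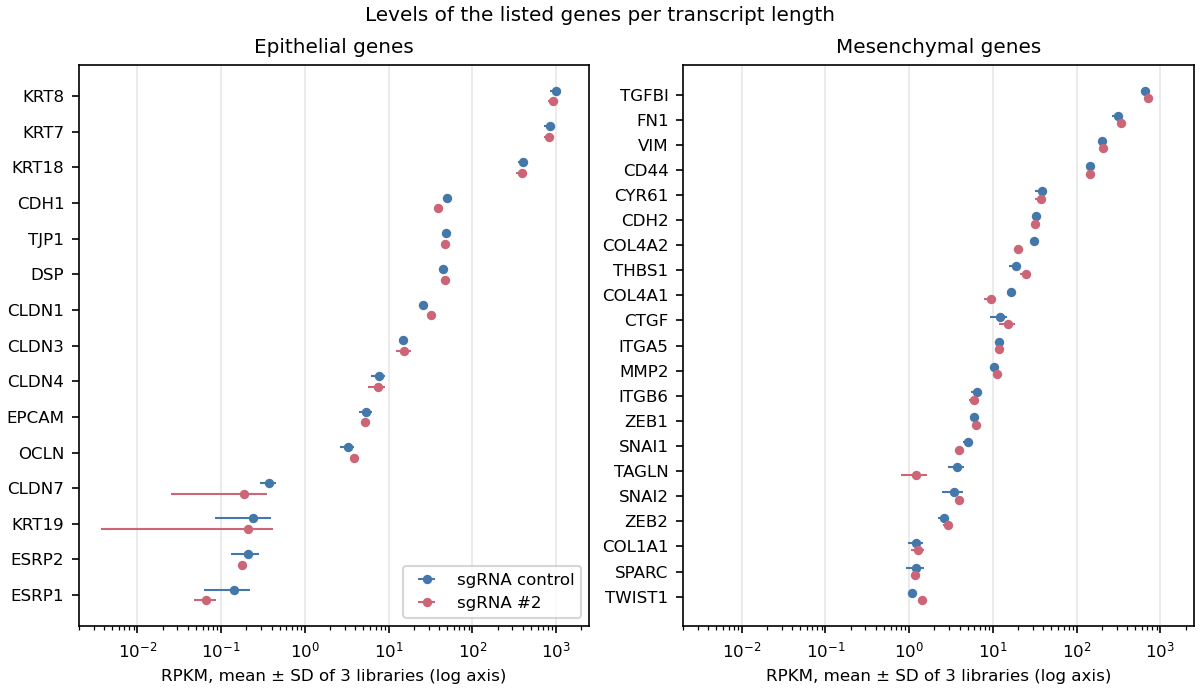
Level of each gene in CPM per kilobase of canonical transcript (RPKM, log axis), as mean and SD of 3 libraries for the sgRNA control and sgRNA #2; OVOL1 and GRHL2, at 0 in all 6 libraries, are not drawn. KRT8 leads the epithelial genes at 995 RPKM and TGFBI the mesenchymal genes at 661 RPKM in the control libraries.

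Genes of both states were abundant in the control libraries. Per transcript length, the simple-epithelial keratins KRT8, KRT7 and KRT18 stood at 995 ± 140, 846 ± 135 and 400 ± 47.4 RPKM (SD, n = 3). The mesenchymal side was led by TGFBI, a secreted matrix protein induced by TGF-beta, at 661 ± 17.9 RPKM, by FN1, fibronectin, at 309 ± 42.9 RPKM, and by VIM, the intermediate filament vimentin, at 199 ± 6.70 RPKM (SD, n = 3 each). CDH1 (E-cadherin) and CDH2 (N-cadherin) were present together, at 49.5 ± 3.33 and 32.8 ± 2.52 RPKM (SD, n = 3 each). TJP1, the tight junction scaffold ZO-1, and DSP, the desmosomal plaque protein desmoplakin, lay next to CDH1 at 48.7 ± 1.70 and 45.0 ± 1.53 RPKM, and the levels of CDH1 and TJP1 did not differ beyond their spread. EPCAM, an epithelial adhesion molecule used to isolate carcinoma cells, was low at 5.43 ± 0.970 RPKM (SD, n = 3). KRT8 and KRT18 have many processed copies in the genome, and their own annotations overlap on opposite strands, which makes their counts uncertain.

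Of the epithelial gene regulators among the 38, none passed the count filter. GRHL2 and OVOL1, transcription factors that uphold the epithelial state, had 0 reads in all 6 libraries, which allows up to 0.143 CPM over the control group and 0.152 CPM over the sgRNA #2 group (3 counts over the group, counting error only). The splicing regulators ESRP1 and ESRP2, which set epithelial isoforms, had few reads. ESRP1 had 3, 6 and 2 counts with sgRNA control against 2, 2 and 1, and ESRP2 had 3, 7 and 5 against 4, 4 and 4. KRT19 had 1, 4 and 2 counts against 4, 2 and 0, and the claudin CLDN7 had 3, 5 and 4 against 3, 3 and 0. These 6 genes did not pass the filter of 10 counts in at least 3 libraries, and no difference in them was tested. In CLDN7 the groups did not overlap in CPM, on at most 5 counts a library. The other 11 epithelial genes and all 21 mesenchymal genes passed it, each with at least 10 counts in all 6 libraries.

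With sgRNA #2, the RNAs of E-cadherin, both chains of the common type IV collagen and transgelin were lower. The RNA of claudin-1 was higher, a call lost in some fits without 1 library. Of the 11 epithelial genes tested, 1 fell (CDH1) and 1 rose (CLDN1) at an adjusted p under 0.05, against 2.69% of all 13356 genes tested (2.22% lower and 0.464% higher). Of the 21 mesenchymal genes, 3 fell (COL4A1, COL4A2 and TAGLN) and 0 rose in edgeR. THBS1 was the 1 gene pointing higher with an unadjusted p under 0.05 there, and 0 rose in DESeq2, which called 2.26% of all genes in either direction. With the added requirement of a log2 fold change of at least 1 in size, the study's cut-offs, 1 of the 38 was left, TAGLN, against 0.719% of all genes (0.689% lower and 0.0299% higher). The 3 libraries of one group lay apart from those of the other in 2 of the 11 epithelial and 7 of the 21 mesenchymal genes, against 15.6% of all genes. The median log2 fold change was -0.04 over the epithelial genes and 0.07 over the mesenchymal genes, beside 0.003 over all tested genes, whose middle range ran from -0.09 to 0.09. Leaving out 1 library moved the epithelial median between -0.06 and 0.07, so its sign was not fixed, and the mesenchymal median between 0.03 and 0.09. Same-numbered libraries of the 2 groups deviated alike, so the fit was repeated with the replicate number as a block. That fit called 3 of the 11 epithelial and 6 of the 21 mesenchymal genes, against 10.0% of all genes (6.06% lower and 3.97% higher), and TAGLN again past both cut-offs, against 0.913%. The genes it added were KRT8, lower, and FN1, THBS1 and CTGF, higher. Its p-values here and below rest on a spread fitted over all genes and not on each gene's own, so they can be too small. In these bulk libraries, fewer cells of a kind and less RNA per cell cannot be told apart.

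**Figure D2:**
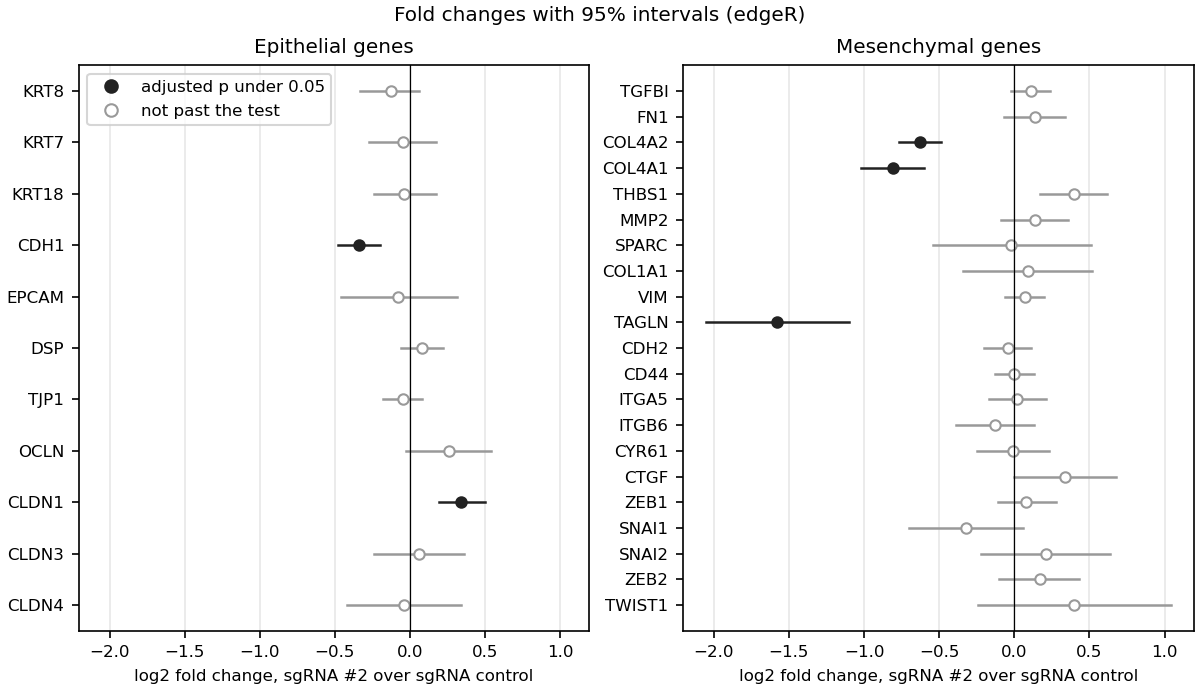
Log2 fold change (sgRNA #2 over sgRNA control) with its 95% interval, not adjusted for the number of genes, for the 11 epithelial and 21 mesenchymal genes tested. Filled points passed an adjusted p under 0.05; TAGLN at -1.58 is the farthest from 0, and most genes sit within 0.2 of it.

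Among the adhesion genes, CDH1 (chr16:68737292-68835537, plus strand, GRCh38) had 220, 247 and 248 normalized CPM in the control libraries and 187, 194 and 184 with sgRNA #2. All 3 sgRNA #2 libraries lay below all 3 control libraries. CDH1 fell by 0.34 on the log2 scale, or 1.27-fold (SE 0.0669, edgeR adjusted p = 0.00728). The change was seen in 3 of 3 same-numbered pairs, as the lack of overlap requires. Leaving out each library in turn kept it between -0.39 and -0.31 and past the test. The gene's annotation holds an antisense RNA and the pseudogene FTLP14, whose reads were not separated here. EPCAM had 7.01, 8.22 and 9.99 CPM against 8.68, 7.51 and 7.83, and these ranges overlapped. It changed by -0.08 on the log2 scale, with a 95% interval from -0.46 to 0.31, so a change of either sign of that size was not resolved.

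CLDN1 (chr3:190305707-190322446, minus strand), a barrier-forming claudin of tight junctions, moved the other way. It had 89.7, 92.1 and 81.1 CPM in the control libraries and 112, 116 and 104 with sgRNA #2, and the groups did not overlap. Its log2 fold change was 0.34 (SE 0.0732, edgeR adjusted p = 0.0129), higher in 3 of 3 pairs, as the lack of overlap requires. The call was lost without control replicate 3 (adjusted p = 0.0874), without sgRNA #2 replicate 1 (0.0584) or without sgRNA #2 replicate 2 (0.0785), while the log2 fold change stayed between 0.29 and 0.38. OCLN, the tight junction protein occludin, had 20.1, 24.1 and 16.04 CPM against 22.5, 25.2 and 24.0. Its log2 fold change of 0.26 (95% interval -0.03 to 0.54) did not pass the test, and its groups overlapped. In fits without 1 library the log2 fold change of OCLN ran from 0.11 to 0.41. CLDN3, CLDN4, TJP1 and DSP had log2 fold changes from -0.05 to 0.08, none past the test. The intervals of TJP1 (-0.18 to 0.08) and DSP (-0.06 to 0.22) were narrow and those of CLDN3 (-0.24 to 0.36) and CLDN4 (-0.42 to 0.34) wider, with lower counts.

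The keratins varied more between replicates than between groups. KRT8 had 1635, 2064 and 1627 CPM in the control libraries and 1485, 1825 and 1543 with sgRNA #2, highest in replicate 2 of each group. Its log2 fold change of -0.13 (SE 0.0937) had an adjusted p of 0.684 in edgeR, and 0.0235 with the replicate block, being lower in 3 of 3 pairs. In fits without 1 library it ran from -0.23 to -0.01. KRT7, at 1377, 1592 and 1154 CPM against 1355, 1487 and 1145, changed by -0.05 (adjusted p = 0.924). KRT18, at 510, 640 and 546 CPM against 497, 651 and 505, changed by -0.04 (adjusted p = 0.938). Neither passed the test with the block.

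**Figure D3:**
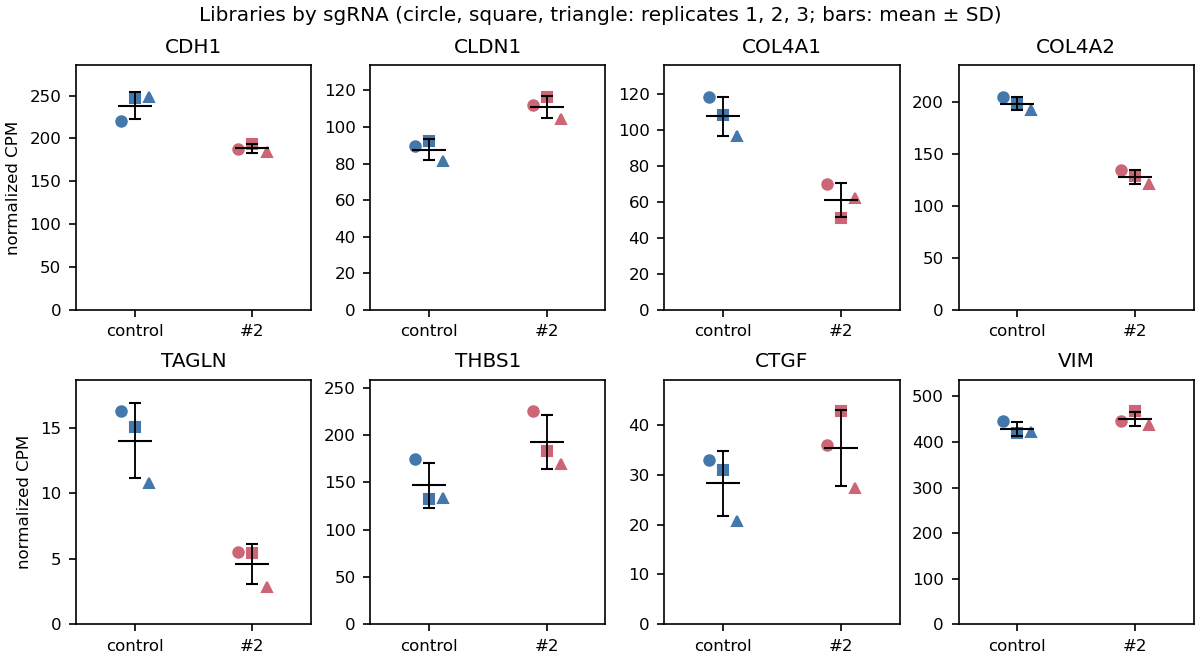
Normalized CPM of 8 genes in each library, with sgRNA control on the left and sgRNA #2 on the right of each panel; markers give the replicate number and bars the mean and SD, and each axis starts at 0. CDH1, COL4A1, COL4A2 and TAGLN are lower and CLDN1 higher with sgRNA #2 without overlap, THBS1 and CTGF overlap but are higher within each replicate number, and VIM overlaps.

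Of the mesenchymal cytoskeletal genes, TAGLN had the largest change among the 32 genes tested. It encodes transgelin, an actin-binding protein of the calponin family that marks smooth muscle and myofibroblasts, and lies at chr11:117199370-117207464 on the plus strand. It had 102, 106 and 82 counts with sgRNA control and 39, 36 and 17 with sgRNA #2, or 16.2, 15.02 and 10.8 CPM against 5.55, 5.41 and 2.83. The groups did not overlap, and the library of replicate number 3 was the lowest in each. TAGLN was 2.98-fold lower, with a log2 fold change of -1.58 (SE 0.225, edgeR adjusted p = 3.15e-04), lower in 3 of 3 pairs, as the lack of overlap requires. Fits without 1 library gave values from -1.74 to -1.34, all past the test. Its annotation overlaps PCSK7 on the opposite strand, and the strand setting of the counting is not given. PCSK7 itself had 258, 249 and 289 counts against 247, 202 and 228 (adjusted p = 0.698 from edgeR). VIM had 445, 419 and 421 CPM against 445, 467 and 438, and its log2 fold change of 0.07 had an interval from -0.06 to 0.20 (adjusted p = 0.766). CDH2 had 136, 120 and 139 CPM against 134, 120 and 130, with a log2 fold change of -0.04 and an interval from -0.20 to 0.11. These intervals leave room for changes of at most 0.20 on the log2 scale, smaller than that of CDH1. The ratio of CDH1 to CDH2, per transcript length, was 1.35, 1.72 and 1.49 in the control libraries and 1.17, 1.35 and 1.18 with sgRNA #2. The ratio was lower in sgRNA #2 than in control at each replicate number, and the highest sgRNA #2 library met the lowest control library.

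COL4A1 and COL4A2 encode the alpha-1 and alpha-2 chains that wind together into the common network collagen of basement membranes, and both fell. COL4A1 (chr13:110148963-110307157, minus strand) had 118, 108 and 96.5 CPM in the control libraries and 70.3, 51.4 and 62.3 with sgRNA #2. It was 1.75-fold lower, with a log2 fold change of -0.81 (SE 0.101, edgeR adjusted p = 6.69e-05). COL4A2 (chr13:110305812-110513209, plus strand) had 205, 199 and 193 CPM against 135, 129 and 121, and was 1.55-fold lower, at -0.63 on the log2 scale (SE 0.0658, edgeR adjusted p = 9.25e-06). In both genes the groups did not overlap, and leaving out each library kept the log2 fold change between -0.92 and -0.70 for COL4A1 and between -0.66 and -0.59 for COL4A2, past the test each time. The ratio of COL4A1 to COL4A2, per transcript length, was 0.569, 0.537 and 0.493 against 0.514, 0.392 and 0.506, which overlapped. COL4A2-AS1, an antisense RNA within COL4A2, had between 0 and 4 counts in each library.

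In GENCODE 44 the annotated ends of these genes overlap on opposite strands. They stand head to head and share the stretch between their starts as promoter, which is why it is printed. In RefSeq on GRCh38.p14 COL4A1 starts at 110307157 and COL4A2 at 110307284, with 126 bp between them (chr13:110307158-110307283, plus strand). Capitals mark a CCAAT and a GGGCGG (GC box), the matches found when both motifs were searched on both strands.
COL4A1-COL4A2 intergenic promoter: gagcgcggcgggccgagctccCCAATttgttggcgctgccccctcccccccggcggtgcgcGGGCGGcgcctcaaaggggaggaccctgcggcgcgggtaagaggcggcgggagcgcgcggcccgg
Of 35116 RefSeq promoters, 21.1% held CCAAT and 34.6% held GGGCGG in the 126 bases before the start. Of the 38 genes, 22 had a promoter in that table.

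The rest of the basement membrane was read from a list of 23 other genes, of which 19 were tested. Of these, 5 fell and 1 rose, against 2.22% of all tested genes lower and 0.464% higher, and the median log2 fold change of the 19 was -0.07. NID2, which encodes nidogen-2, a linker of the laminin and collagen networks, had 68.0, 64.1 and 87.4 CPM in the control libraries and 35.0, 35.6 and 52.1 with sgRNA #2. Its groups did not overlap, and it fell by 0.85 on the log2 scale (SE 0.137, edgeR adjusted p = 0.00115). COL15A1, a collagen at the border of basement membrane and stroma, had 33, 28 and 55 counts against 15, 8 and 4, with a log2 fold change of -2.0 (SE 0.351, adjusted p = 0.00266). COL15A1 met the count filter through its control libraries and 1 sgRNA #2 library, so it was near the floor of what could be tested. LAMB1 (laminin beta-1), COL18A1 (the source of endostatin) and AGRN (agrin) fell by 0.31, 0.32 and 0.26 on the log2 scale (edgeR adjusted p = 0.00984, 0.011 and 0.0463). SMOC1, a secreted calcium-binding protein, had 22.6, 26.4 and 29.2 CPM against 35.3, 39.5 and 36.1, and was higher by 0.50 (SE 0.109, adjusted p = 0.015). Leaving out single libraries kept the calls of NID2 and COL15A1, while SMOC1 passed in 4 of the 6 fits, LAMB1 and COL18A1 in 3 and AGRN in 1. AGRN also missed the test with another scaling, RLE size factors (edgeR adjusted p = 0.0503). Over the whole list, 3 genes were past the test in place of 6 without sgRNA #2 replicate 1, and also 3 without sgRNA #2 replicate 2. In the latter fit NID2 and COL15A1 were the only ones of the 6 named genes to pass, so the 3 included another gene of the list. The tissue-restricted chains COL4A3, COL4A4, COL4A5 and COL4A6 had log2 fold changes between -0.15 and 0.04, none past the test. LAMB3, a chain of the epithelial laminin-332, was at 0.38 (edgeR adjusted p = 0.0588, 0.0333 in DESeq2 and 1.44e-12 with the replicate block).

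**Figure D4:**
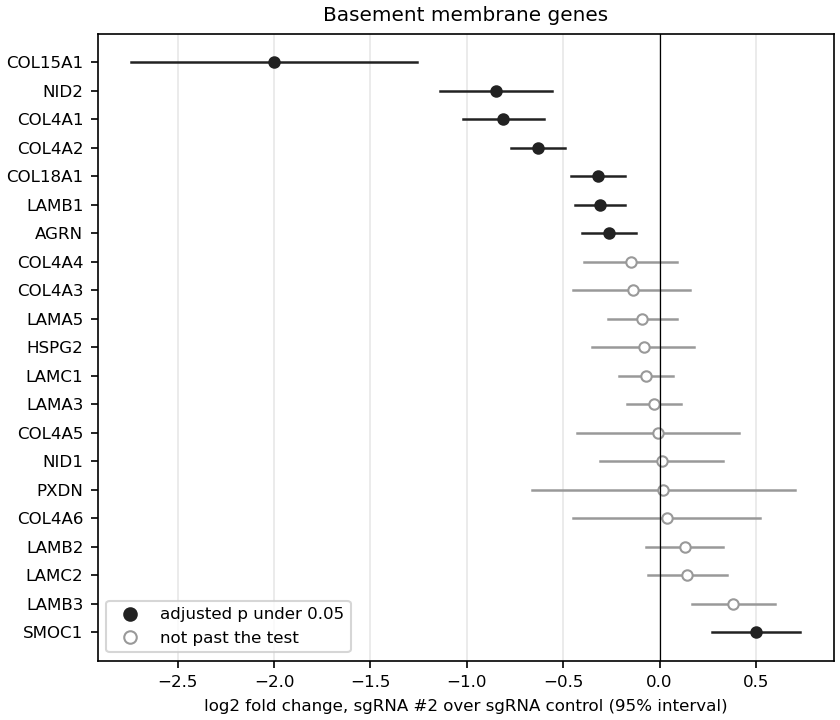
Log2 fold change (sgRNA #2 over sgRNA control) with its 95% interval for COL4A1, COL4A2 and the 19 other basement membrane genes tested. Filled points passed an adjusted p under 0.05: 7 lie below 0, from COL15A1 at -2.0 to AGRN at -0.26, and SMOC1 lies above at 0.50.

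None of the 5 EMT transcription factors passed the test, against 2.69% of all tested genes. Their unadjusted edgeR p was above 0.05 in each, while 11.1% of all genes were below it. In DESeq2 0 passed, against 2.26% of all genes. At these shares, 0 calls among so few genes do not set them apart from other genes. SNAI1, which encodes SNAIL, had 8.76, 9.49 and 7.36 CPM in the control libraries and 7.25, 6.46 and 6.66 with sgRNA #2. Its groups did not overlap, and its log2 fold change of -0.32 (SE 0.181) had an adjusted p of 0.557 in edgeR and 0.268 with the block. TWIST1 had 10, 14 and 13 counts against 18, 15 and 13, or 1.59, 1.98 and 1.71 CPM against 2.56, 2.25 and 2.17. Its groups did not overlap in CPM, and its log2 fold change of 0.40 had an interval from -0.24 to 1.04. ZEB1, the most abundant of the 5 per length at 5.87 ± 0.333 RPKM (SD, n = 3), had 36.3, 32.6 and 35.6 CPM against 36.7, 37.4 and 36.5. The groups lay apart by less than 1 CPM, and the change of 0.08 had an interval from -0.11 to 0.28. SNAI2 (SLUG) and ZEB2 changed by 0.21 and 0.17, both with overlapping groups. Fits without 1 library gave 0.03 to 0.44 for SNAI2 and 0.08 to 0.29 for ZEB2. Of 14 other EMT transcription factors, 9 were tested and 0 passed in edgeR, 0 of them with an unadjusted p under 0.05, and 0 passed in DESeq2. These counts stand against the same shares of all genes and do not set the 9 apart either. With the replicate block 1 of the 9 rose, against 3.97% of all genes. This was HMGA2 (log2 fold change 0.27 and adjusted p = 0.463 without the block).

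The other matrix genes of the set did not pass the test in the main edgeR fit, which had no block. THBS1, thrombospondin-1, an activator of latent TGF-beta, had 174, 132 and 134 CPM in the control libraries and 225, 184 and 170 with sgRNA #2. The highest control library lay above the lowest sgRNA #2 library, but within each replicate number sgRNA #2 was the higher, by 0.37, 0.47 and 0.34 on the log2 scale. THBS1 changed by 0.40 (SE 0.106), with an adjusted p of 0.0569 in edgeR and 7.52e-14 with the block, which sets aside the gene's own spread. It also passed without control replicate 1 (adjusted p = 0.00502), without sgRNA #2 replicate 3 (0.0165) and without a count filter (5.78e-06). It did not pass in DESeq2 (adjusted p = 0.503) or without control replicate 2 (0.223), control replicate 3 (0.209), sgRNA #2 replicate 1 (0.347) or sgRNA #2 replicate 2 (0.0863), and its log2 fold change ran from 0.27 to 0.54 over the fits without 1 library. FN1 had 2257, 2974 and 2546 CPM against 2490, 3130 and 2928, higher within each replicate number. The change of 0.14 had an adjusted p of 0.687 in edgeR and 0.0172 with the block, and ran from 0.05 to 0.25 in fits without 1 library. TGFBI had 1848, 1762 and 1767 CPM against 1908, 1922 and 1973, without overlap, at 0.11 (adjusted p = 0.565, and 0.0808 with the block). MMP2, a gelatinase that cuts type IV collagen, was at 0.14 with overlapping groups (adjusted p = 0.724). SPARC and COL1A1, which fibroblasts make in quantity, had under 10.0 CPM in every library, and their log2 fold changes of -0.02 and 0.09 had intervals as wide as -0.54 to 0.51.

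CTGF and CYR61, now named CCN2 and CCN1, are matricellular proteins transcribed by YAP and TEAD. CTGF had 33.1, 31.0 and 20.8 CPM in the control libraries and 36.1, 42.8 and 27.5 with sgRNA #2, lowest in replicate 3 of each group. It was higher within each replicate number, by 0.13, 0.46 and 0.40 on the log2 scale, and its log2 fold change of 0.34 (SE 0.161) had an adjusted p of 0.448 in edgeR and 0.00508 with the block. The log2 fold change was 0.15 without control replicate 3 and 0.18 without sgRNA #2 replicate 2, and up to 0.49 in the other fits without 1 library. CYR61 did not share this. It had 103, 84.6 and 74.5 CPM against 92.0, 95.4 and 71.0, with a log2 fold change of -0.01 (adjusted p = 0.988). CD44, the hyaluronan receptor, had the log2 fold change nearest 0 of the 32, at 798, 747 and 816 CPM against 812, 758 and 791, or 0.00 with an interval from -0.13 to 0.13. ITGA5, the alpha chain of the fibronectin receptor, was at 0.02 (interval -0.17 to 0.21). ITGB6, the beta chain of an epithelial integrin that activates TGF-beta, was at -0.13 (interval -0.39 to 0.13), and neither passed the test with or without the block.

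Other genes of these pathways were read from 10 further lists, which together held 247 genes outside the 38. Of these, 191 were tested, 16 fell and 3 rose at an adjusted p under 0.05, the 6 basement membrane genes included, against 2.22% and 0.464% of all tested genes. LAD1, among the 16, met the count filter only through the control libraries. Among 32 other junction genes tested, such as catenins, nectins and desmosomal proteins, 0 passed in edgeR, 3 fell and 1 rose with the replicate block, 5 had an unadjusted p under 0.05 (11.1% of all tested genes did), and 8 did not overlap between groups (15.6% of all tested genes). DESeq2 called 1 of the 32, against 2.26% of all genes. This was CLDN2, a pore-forming claudin and the most abundant of the list by CPM, at 758, 856 and 882 CPM against 646, 672 and 756 (log2 fold change -0.27, DESeq2 adjusted p = 0.0401). Among 7 other keratins 0 passed in edgeR or DESeq2, and 0 had an unadjusted p under 0.05. Among 13 other epithelial regulators and surface genes, 3 fell, or 2 without LAD1, whose direction the count filter fixed. With the replicate block 5 fell and 1 rose. The 3 were the ETS-family factors EHF (log2 fold change -0.53, SE 0.0753, edgeR adjusted p = 2.72e-04) and ELF3 (-0.32, adjusted p = 0.0288), and LAD1, which encodes the anchoring filament protein ladinin-1. EHF had 102, 119 and 104 CPM in the control libraries and 72.7, 76.4 and 75.1 with sgRNA #2, without overlap. LAD1 had 13, 16 and 21 counts against 5, 0 and 4, and its log2 fold change of -2.34 is that of a gene that had to be higher there to be tested.

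Among 23 other mesenchymal cytoskeletal and surface genes tested, 1 fell, CNN2, and with the replicate block 4 fell and 1 rose. CNN2 encodes calponin-2, which belongs to the same actin-binding family as transgelin. The other calponin and transgelin genes of this list were not among the calls of the main edgeR fit. CNN2 had 155, 189 and 144 CPM in the control libraries and 84.1, 75.4 and 98.3 with sgRNA #2, and its log2 fold change was -0.92 (SE 0.102, edgeR adjusted p = 1.68e-05). Among 26 other matrix genes, TIMP2, an inhibitor of metalloproteinases, and COL6A2, a chain of type VI collagen, fell by 0.44 and 0.58 on the log2 scale (adjusted p = 0.00102 and 0.00246). COL7A1, the anchoring fibril collagen, rose by 0.32 (adjusted p = 0.0367). With the block 4 of the 26 fell and 3 rose. Among 24 TGF-beta ligands, receptors and SMAD pathway genes, 2 fell and 0 rose in edgeR and in DESeq2, and 0 pointed higher with an unadjusted p under 0.05. With 0.464% of all genes higher in edgeR, 0 higher of 24 does not set this list apart. With the block 6 fell and 0 rose. PMEPA1, a TGF-beta target that dampens the signal, had 567, 499 and 486 CPM against 420, 374 and 391, with a log2 fold change of -0.39 (SE 0.072, adjusted p = 0.00446). LTBP2, a matrix protein of the latent TGF-beta binding family, fell by 0.53 (adjusted p = 0.00735). Among 13 other integrins, ITGA1 and ITGB4 fell by 0.58 each (adjusted p = 0.0411 and 0.0438), and the groups of ITGB4 overlapped. The median over the 13 was -0.24, and with the block 5 fell and 1 rose. DESeq2 called ITGB4 and ITGA3 and not ITGA1. Among 27 genes of the YAP and TEAD list, NUAK2, a kinase gene, fell and CRIM1, a transmembrane protein gene, rose by 0.25 (adjusted p = 0.0448). With the block 1 of the 27 fell and 3 rose. These block counts stand against 6.06% of all genes lower and 3.97% higher. The edgeR counts of these lists without the block stand against 2.22% lower and 0.464% higher. For either direction, DESeq2 called 2.26% of all genes, and 11.1% had an unadjusted edgeR p under 0.05. NUAK2 had 92.1, 95.8 and 74.8 CPM against 44.2, 48.2 and 34.1, with a log2 fold change of -1.04 (SE 0.114, adjusted p = 1.50e-05). CNN2, COL6A2, EHF, NUAK2, PMEPA1 and TIMP2 passed in each of the 6 fits that left out 1 library. LTBP2 passed in 5 of the 6, ITGB4, COL7A1 and ELF3 in 2, ITGA1 in 1 and CRIM1 in 0. ITGB4 was at -0.36 on the log2 scale without control replicate 2, and also missed the test with total counts only and with 10 counts required in every library (edgeR adjusted p = 0.0521 in each). LAD1 fell below the count filter whenever a control library was left out.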

How the data were processed

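The authors deposited raw counts of reads per gene symbol for each of the 6 libraries, made with htseq-count. The submitters' processing notes name Trim Galore, FastQC, Bowtie2 2.3.3.1, SAMtools, Picard and hg38. The annotation and strand setting are not given in the sources used here. Lines that name no gene held 19.7 to 21.1% (no feature) and 2.61 to 2.75% (ambiguous) of reads and were left out. The sample titles gave the group and replicate number. Replicates differed by more than sampling noise (chi-square per degree of freedom 2.61 to 3.43).

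The quasi-likelihood test of edgeR 4.0.16 in R 4.3.3 was used with TMM factors and Benjamini-Hochberg adjustment. A gene was tested where 3 or more libraries held 10 or more counts, which left 13356. The study describes the libraries of each group as biologically independent, while the labels name no separate cultures; all came from 1 cell line. An exact permutation test of 3 libraries against 3 cannot go below a two-sided p of 0.10. Alternatives were DESeq2 1.42.0, other scalings and count filters, the replicate block and leaving out each library. The code was tested on simulated data. The members, lists and tests were chosen with earlier results of these data known. Genes named are all 38 members, SFTPB, and the other listed genes past the test, with a few added after their values were seen (THY1, CD68, ESAM, PCSK7, COL4A2-AS1, LAMB3, HMGA2, CLDN2, ITGA3, marker genes and the COL4A3 to COL4A6 chains). Deviations from the group means correlated at 0.304, 0.311 and 0.32 between same-numbered libraries, above 0.1 in all 3 pairs, so the numbers were taken as pairs; the labels state no shared batch. The SE is the log2 fold change divided by the square root of F. Positions and canonical transcript lengths are from GENCODE 44 on GRCh38, which matched 24277 symbols, 1347 of them through a RefSeq synonym.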

Additional observations from a re-analysis of the deposited data

How the results depend on the processing

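CDH1, COL4A1, COL4A2 and TAGLN kept their direction and an adjusted p under 0.05 in all 12 alternative fits, and CLDN1 in 9 of them. Across the fits that left out 1 library, the epithelial genes past the test numbered 1 to 2, the other listed genes 10 to 16 (main 19), all genes past the test 224 to 327 (main 359) and genes past both cut-offs 65 to 94 (main 96). With the replicate block 3 epithelial genes (KRT8 added), 6 mesenchymal genes (FN1, THBS1 and CTGF added), 45 other listed genes and 1339 genes in all passed, and without a count filter 29 and 583. In both fits the prior degrees of freedom were infinite, against 13 in the main fit, so their p-values rest on the trended dispersion. The block changed no other call among the 38. Requiring 10 counts in every library left 63 genes past both cut-offs, with fewer genes tested (12562). Genes near 0 changed sign when single libraries were left out, with log2 fold changes from -0.19 to 0.07 for EPCAM, -0.16 to 0.07 for KRT7, -0.17 to 0.06 for KRT18, -0.11 to 0.16 for CLDN3, -0.24 to 0.14 for CLDN4, -0.10 to 0.00 for CDH2, -0.03 to 0.03 for CD44, -0.22 to 0.16 for SPARC, -0.02 to 0.26 for COL1A1, -0.04 to 0.09 for ITGA5 and -0.12 to 0.12 for CYR61; CD44 also did so, at 0.00, when 10 counts were required in every library. The cause of these reversals was not tested.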
